A study of Sorghum bicolor with 63 samples.

Results

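The members are 7 sorghum genes for basic leucine zipper (bZIP) transcription factors (TFs) of a nitrogen regulatory network that the study projected from maize onto sorghum. They were taken by gene ID: bZIP18 (SORBI_3009G237600), bZIP30 (SORBI_3002G076100), bZIP12 (SORBI_3009G030100), bZIP65 (SORBI_3002G264100), bZIP98 (SORBI_3001G380700) and a pair of genes under the name bZIP34, written bZIP34b (SORBI_3009G137100) and bZIP34a (SORBI_3004G200866). The names are those of the maize factors from which the network was projected. The 7 genes are among 29 bZIP genes of that network and 35567 genes in the expression tables. They were chosen with earlier results of these data known. Their chromosomal positions and sequences were not analysed here.

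A bZIP factor holds DNA with a basic region and pairs with a second bZIP protein through a leucine zipper, so that members of the family work as dimers. Many plant bZIP factors bind DNA elements with an ACGT core. In Arabidopsis, bZIP proteins such as the TGA factors and HY5 take part in the regulation of nitrate transporter genes. In the projected network, an edge joins a TF to a gene whose maize ortholog has a promoter that the maize TF bound in yeast.

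RNA of sorghum genotype BTx623 was measured in leaf, lateral root and primary root, with 63 libraries in 21 groups of 3. Plants in hydroponic culture, 21 days after germination at the start, were sampled with nitrate (0 h), after 0.5, 3 and 24 h in a solution whose nitrate salts were replaced by chloride and sulfate, and, nitrate having been given back at 24 h, at 24.5 and 48 h. The sources differ on whether the 48 h sample was taken 24 or 48 h after that return. A further group per tissue is labelled as a control of the recovery at 48 h and is not described further, and plants of all groups had grown with nitrate before 0 h. No group of 0.5 or 24.5 h kept its nitrate unchanged. At these times the change of nitrate cannot be told apart from the change of solution itself or the hour of sampling. Each library pooled tissue of several plants (5 by the labels), and p-values therefore measure the spread between such pools. Levels are in TPM, a value per transcript length on a fixed total for each library that keeps no record of depth, and the number of reads behind a value is unknown.

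The labelled tissues were checked with marker genes. The summed level of 4 leaf genes of C4 photosynthesis was 15956 to 38145 TPM in leaf and 15.7 to 247 TPM in the lateral root libraries other than 0 h replicate 1. The library labelled replicate 1 of lateral root at 0 h had 29065 TPM of them, 0.0483 TPM of the nitrate uptake genes used as root markers (other lateral root libraries 3.69 to 1931 TPM), and all 7 bZIP genes at a level within their leaf range. The library labelled replicate 3 of primary root at 24.5 h had 2474 TPM of the leaf genes (other primary root libraries 47.7 to 780.3 TPM) and 30736 genes at 1 TPM or more, against a median of 21306. Both libraries were kept, and the main results that rest on them are given with and without them. Leaf 48 h control replicate 1, which holds the leaf minimum of 15956 TPM, was also kept. Replicates 2 and 3 of its group had 37600 and 28900 TPM of the leaf genes. By correlation over all genes its nearest library was leaf 3 h replicate 2. Less RNA of a gene per cell and fewer cells of the type that makes it cannot be told apart in such bulk samples.

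bZIP12 had the highest level of the 7 genes in each tissue. Its mean over 21 libraries was 131 TPM (range 77.9 to 229.9) in leaf. In lateral root it was 686 TPM (range 179 to 1170.1), and in primary root 637 TPM (range 343 to 1109.7). It ranked first among the 29 network bZIP genes in all tissues and made up 16.4% of their summed TPM in leaf and, in lateral and primary root, 39.0% and 39.1%. By mean TPM it was the gene of rank 128 among all 35567 genes in lateral root, of rank 174 in primary root and of rank 1098 in leaf.

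bZIP34b followed, with leaf at 19.5 TPM (range 13.7 to 32.7), lateral root at 42.7 TPM (range 27.6 to 58.4) and primary root at 38.1 TPM (range 30.8 to 48.3). bZIP30 had a leaf mean of 13.3 TPM (range 8.88 to 20.7), a lateral root mean of 22.6 TPM (range 13.5 to 39.2) and a primary root mean of 22.2 TPM (range 16.0 to 29.9). bZIP65 stood at 8.57 TPM (range 6.19 to 12.2), 16.7 TPM (range 8.91 to 24.9) and 18.3 TPM (range 15.3 to 27.4) in leaf, lateral root and primary root. These genes had a narrower span between leaf and root than the next ones. bZIP18 averaged 3.96 TPM (range 2.43 to 7.10) in leaf, with a lateral root mean of 22.3 TPM (range 4.87 to 55.4) and a primary root mean of 17.1 TPM (range 4.95 to 41.0). bZIP98 averaged 3.49 TPM (range 0.740 to 6.94) in leaf, with a lateral root mean of 16.0 TPM (range 1.91 to 21.6) and a primary root mean of 22.5 TPM (range 15.5 to 29.9). bZIP34a was near 0, with a leaf mean of 0.390 TPM (range 0 to 1.25), a lateral root mean of 1.16 TPM (range 0 to 2.36) and a primary root mean of 0.653 TPM (range 0 to 3.92), and it was listed at 0 in 10, 6 and 10 of the 21 libraries. Whether reads were shared between both copies of bZIP34 was not tested.

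The order was firm at its ends and not in its middle. bZIP12 was above bZIP34b in all 21 libraries of each tissue, and bZIP34a was below the next gene in all of them. In leaf, bZIP34b was above bZIP30 in 20 of 21 libraries and bZIP18 above bZIP98 in only 13. The lateral root neighbours bZIP30, bZIP18, bZIP65 and bZIP98 were not separated, the higher gene being above the lower in 12, 13 and 10 of 21 libraries. The same held in primary root for bZIP98 over bZIP30 (10 of 21), bZIP30 over bZIP65 (16) and bZIP65 over bZIP18 (14). The highest group mean of bZIP18 was 4.11 times its lowest in primary root, and that of bZIP12 2.31 times.

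**Figure D1:**
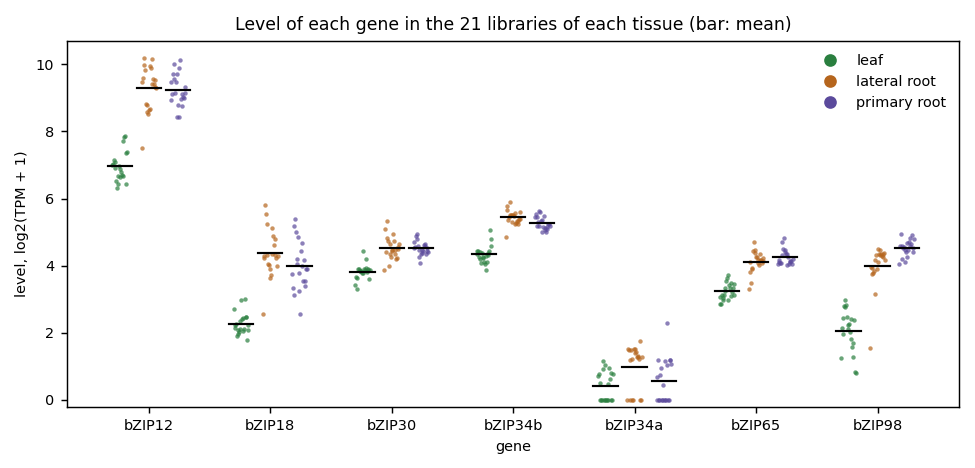
Levels of the 7 bZIP genes in leaf, lateral root and primary root, as log2(TPM + 1) in each of 21 libraries per tissue (points). bZIP12 lies above all other members in every library, bZIP34a lies lowest, and bZIP18 and bZIP98 have their lowest levels in leaf.

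The tissues were compared in 1 limma fit of all 63 libraries on log2(TPM + 1), averaging over the 7 groups of each tissue. A gene was called where the Benjamini-Hochberg adjusted p over all genes tested was under 0.05 and the log2 fold change was over 1 in size. Between leaf and primary root, 4 of 7 members were called, all lower in leaf, where 52.9% of all genes were called. bZIP98 was lower in leaf by a log2 fold change of -2.49 with SE 0.14 and adjusted p = 8.1e-22, and bZIP12 by -2.27 with SE 0.11 and adjusted p = 1.9e-24. bZIP18 had -1.73 with SE 0.11 and adjusted p = 2.3e-19 and bZIP65, at the edge of the threshold, -1.02 with SE 0.06 and adjusted p = 2.3e-21. bZIP34b (-0.94, adjusted p = 5.5e-20) and bZIP30 (-0.70, adjusted p = 6.7e-12) were under the fold threshold, and bZIP34a did not pass (-0.16, adjusted p = 0.36).

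The median gene was itself at -0.69 in this comparison on the deposited scale, at -0.14 after median-of-ratios scaling and at -0.02 after quantile normalization. bZIP98 kept -1.87 and -1.67 under these scalings, and bZIP12 kept -1.52 and -1.99. bZIP18 had -1.09 and -0.86, the second of which is under the fold threshold. bZIP65 came to -0.33 and -0.26, bZIP34b to -0.22 and -0.33, and bZIP30 to 0.01 and -0.01, so that the sign of bZIP30 depended on the scaling. bZIP98 and bZIP12 were called under all 3 scalings.

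Between lateral and primary root, 0 of 7 members were called by limma and 4.68% of all genes, while 5 members had an unadjusted p under 0.05. The same 5 had an adjusted p under 0.05 with no fold threshold, as did 48.7% of all genes. bZIP98 was lower in lateral root by a log2 fold change of -0.54 (adjusted p = 0.0010), and bZIP65 by -0.15 (adjusted p = 0.035). bZIP34a (0.42, adjusted p = 0.028), bZIP18 (0.37, adjusted p = 0.0046) and bZIP34b (0.16, adjusted p = 0.022) were higher there. Without lateral root 0 h replicate 1, the log2 fold change was -0.43 for bZIP98, -0.11 for bZIP65, 0.46 for bZIP18 and 0.20 for bZIP34b. With 1 library left out at a time, the adjusted p by limma reached 0.069 for bZIP65 and 0.063 for bZIP34a.

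bZIP18, the member with edges to the most genes of the network, changed the most when nitrate was withdrawn. At 0.5 h without nitrate its level was 3.68 times that at 0 h in primary root and 3.35 times in lateral root, while no change passed the test in leaf. The primary root libraries had 12.4, 9.12 and 7.73 TPM at 0 h and 35.6, 41.0 and 31.0 TPM at 0.5 h, a mean of 9.75 ± 2.40 against 35.9 ± 4.98 TPM (SD, n = 3). Each library of 0.5 h was above every other primary root library of the study. Expressed as a log2 fold change, the rise was 1.79 with SE 0.29 and adjusted p = 0.00064 by limma, with a 95% interval of 1.18 to 2.40. It was 1 of 7 members called at that time in primary root, against 5.37% of all genes.

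The lateral root libraries had 4.87, 17.8 and 18.4 TPM at 0 h, the first of these being the library that resembled leaf, and 55.4, 45.4 and 37.0 TPM at 0.5 h. All libraries of 0.5 h lay above all others of lateral root. bZIP18 rose by 1.84 with SE 0.34 and adjusted p = 0.0024 on the log2 scale, and it was the 1 member of 7 called, against 8.65% of all genes. Without the library labelled replicate 1 of lateral root at 0 h, the level was 2.53 times that at 0 h, with a log2 fold change of 1.28 with SE 0.21 and adjusted p = 0.00040, again 1 of 7 members, against 8.83% of all genes. Set against the 48 h control in place of 0 h, the log2 fold change at 0.5 h was 1.36 (adjusted p = 0.038) in lateral root and 1.47 (adjusted p = 0.0051) in primary root.

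Leaf behaved otherwise. Its libraries had 5.57, 3.72 and 3.45 TPM at 0 h and 3.77, 2.75 and 3.22 TPM at 0.5 h, which overlap, and the log2 fold change was -0.29 with SE 0.22 and adjusted p = 0.999 with a 95% interval of -0.75 to 0.17. At 0.5 h, 0 of 6 members tested in leaf were called and 0 had an unadjusted p under 0.05, and the share called among all leaf genes was 0%. The difference of the changes itself, leaf minus primary root, was -2.08 with SE 0.42 and adjusted p = 0.0039 on the log2 scale by the limma interaction term. With all libraries bZIP18 was the 1 member of 7 that passed it, where 1.1% of all genes did. Over all interactions of leaf against primary root, 2 changes of members passed with all libraries. Without lateral root 0 h replicate 1, 9 did, and low p-values became more frequent among all genes too. For 0.5 h against 0 h, 3412 of 25442 genes then had an unadjusted p under 0.05 by limma, against 2246 of 25450 with all libraries. The share of all genes that passed in that fit is not given here.

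From 0.5 to 3 h bZIP18 fell in lateral root. Its libraries there had 18.9, 15.7 and 15.2 TPM at 3 h, all below those of 0.5 h, and the level fell by 1.40 on the log2 scale from 0.5 h (SE 0.34, adjusted p = 0.017). Of the 21 fits that left out 1 library each, 4 lost this call (adjusted p up to 0.086). Primary root libraries had 17.5, 15.5 and 27.7 TPM, also below those of 0.5 h, with a log2 fold change of -0.83 (adjusted p = 0.058), which did not pass. Compared with 0 h, primary root was still at 2.08 times the level at 3 h, a log2 fold change of 0.96 (adjusted p = 0.037), under the fold threshold. By 24 h the libraries had 13.9, 11.4 and 12.3 TPM in lateral root and 8.55, 12.7 and 4.95 TPM in primary root, overlapping those of 0 h in primary root.

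bZIP18 rose a second time in primary root after the change of solution that gave nitrate back. At 24.5 h, 0.5 h after the return, primary root libraries had 20.7, 24.4 and 15.0 TPM, all above those of 24 h, and the mean was 2.30 times that at 24 h. This was a log2 fold change of 1.17 with SE 0.29 and adjusted p = 0.019, and 1.35 (adjusted p = 0.019) without the library labelled replicate 3 of primary root at 24.5 h. Over all fits that left out 1 library it ran from 0.86 to 1.46, and 3 of 21 lost the call (adjusted p up to 0.096), as did the fit of the 24 and 24.5 h groups alone (adjusted p = 0.13). bZIP18 and bZIP12 were the 2 of 7 members called in primary root, against 3.8% of all genes. Against 0 h the log2 fold change at 24.5 h was 0.97 (adjusted p = 0.034), under the fold threshold, and 1.15 (adjusted p = 0.027) without that library.

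Lateral root libraries had 19.3, 33.6 and 28.5 TPM at 24.5 h, all above those of 24 h and 2.16 times in the mean. With all libraries the log2 fold change was 1.02 with SE 0.34 and adjusted p = 0.21, and it did not pass: limma called 0 of 7 members there and 1.41% of all genes, 2 members having an unadjusted p under 0.05. Without the library labelled replicate 1 of lateral root at 0 h, which enters the spread shared by all groups, the SE was 0.19 and the adjusted p 0.0017. In that fit bZIP18 and bZIP12 were called, 2 of 7 members, against 3.68% of all genes. The change in lateral root minus that in primary root was -0.15 with SE 0.42 and adjusted p = 1, and by limma 0 of 7 members passed this interaction, 0 had an unadjusted p under 0.05, and 0% of all genes passed.

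Leaf libraries had 4.09, 6.84 and 4.27 TPM at 24 h and 4.42, 3.103 and 3.30 TPM at 24.5 h, which overlap (log2 fold change -0.38, adjusted p = 0.45). Of 6 members tested, limma called 0 in leaf and 0 had an unadjusted p under 0.05, against 0.302% of all genes called. The change at the return of nitrate in leaf minus that in primary root was -1.55 with SE 0.42 and adjusted p = 0.037 for bZIP18. With all libraries bZIP18 was the 1 member of 7 that passed, against 1.89% of all genes. Leaving out single libraries took the difference between -1.84 and -1.24, and 6 of these fits lost the call. At 48 h bZIP18 stood at 23.3, 26.8 and 19.1 TPM in lateral root and 10.6, 17.1 and 10.7 TPM in primary root, and its 48 h control at 17.7, 15.0 and 18.6 and 9.43, 13.8 and 13.9 TPM, so that the primary root groups overlapped. Leaf libraries of 48 h had 7.10, 4.59 and 4.55 TPM and those of the control 2.43, 3.65 and 3.21 TPM, which do not overlap, with no call.

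**Figure D2:**
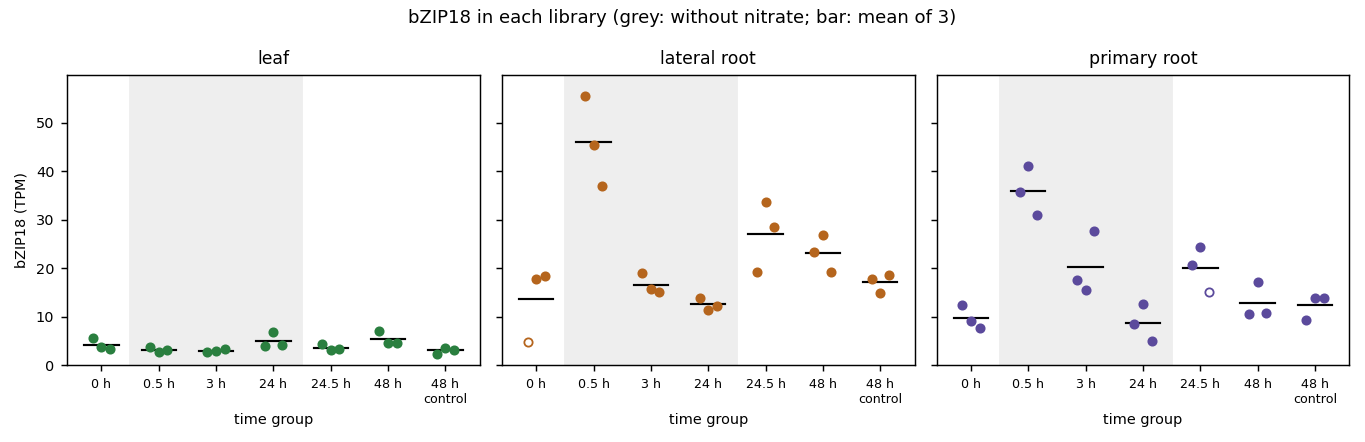
bZIP18 in every library, in TPM, by time in leaf, lateral root and primary root. Points are libraries, bars are means of 3, the grey band marks the groups without nitrate, and open symbols mark lateral root 0 h replicate 1 and primary root 24.5 h replicate 3. In both roots the 3 libraries at 0.5 h stand above all others, and those at 24.5 h stand above those at 24 h.

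bZIP12, the most abundant member, had its largest change in lateral root at the return of nitrate, and both roots showed it. In primary root its libraries had 343, 442 and 344 TPM at 24 h and 951, 1109.7 and 495 TPM at 24.5 h. All of the latter exceeded all of the former, although the replicate with the raised leaf genes was well under the other 2. The mean was 2.26 times that at 24 h, and the log2 fold change 1.11 with SE 0.24 and adjusted p = 0.010. Without primary root 24.5 h replicate 3 it was 1.46 (adjusted p = 0.00087). Over all fits that left out 1 library it ran from 0.87 to 1.46, and 2 of 21 fell under the fold threshold. The call was also lost in 1 other setting (adjusted p = 0.13 by limma).

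Lateral root libraries had 362, 397 and 408 TPM at 24 h and 994, 946 and 1146 TPM at 24.5 h, 2.64 times in the mean and without overlap. The change on the log2 scale, 1.40 with SE 0.37 and adjusted p = 0.069, did not pass with all libraries. Without the library labelled replicate 1 of lateral root at 0 h it passed, with SE 0.11 and adjusted p = 6.2e-07, and it also passed after median-of-ratios scaling of all libraries (adjusted p = 0.0016). In leaf, 124, 99.5 and 117 TPM at 24 h stood against 110.3, 102 and 102 TPM at 24.5 h, and the groups overlapped.

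At the withdrawal of nitrate, bZIP12 had 179, 716 and 767 TPM at 0 h and 1170.1, 1001 and 914 TPM at 0.5 h in lateral root. The log2 fold change was 1.14 (adjusted p = 0.055) with all libraries, and 0.46 (adjusted p = 0.015) without 0 h replicate 1, under the fold threshold. By 3 h the lateral root libraries had 454, 443 and 384 TPM, all below those of 0.5 h, a log2 fold change of -1.26 with SE 0.37 and adjusted p = 0.045. bZIP12 and bZIP18 were the 2 of 7 members called between 0.5 and 3 h in lateral root, against 5.05% of all genes. Without 0 h replicate 1 both passed, against 9.46% of all genes, with adjusted p = 4.8e-07 for bZIP12 and 3.4e-05 for bZIP18. With 1 library left out at a time, the call of bZIP12 was lost in 18 of 21 fits and that of bZIP18 in 4. Primary root had 708, 490.2 and 553 TPM at 0 h and 831, 1024 and 759 TPM at 0.5 h, again with all of the later libraries higher, and a log2 fold change of 0.58 (adjusted p = 0.15) that did not pass.

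Against 0 h, 2 of 7 members were called in lateral root at 24.5 h, bZIP12 and bZIP18, where 13.2% of all genes were. Their log2 fold changes were 1.15 (adjusted p = 0.039) for bZIP12 and 1.09 (adjusted p = 0.036) for bZIP18. Without 0 h replicate 1 they were 0.47 and 0.52, and neither was called, against 10.9% of all genes. The comparisons of 0.5 h and of 24.5 h with 0 h share the libraries of 0 h, whereas that of 24.5 h with 24 h shares none with them.

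Leaf showed bZIP12 high at 48 h. Leaf libraries of 48 h had 209, 225 and 229.9 TPM, above every other leaf library, against 124, 99.5 and 117 TPM at 24 h and 127, 129 and 140.4 TPM at 0 h. Against 24 h the log2 fold change was 0.96 with SE 0.20 and adjusted p = 0.0037, 1.95 times in the mean and just under the fold threshold, so that 0 of 6 members were called, against 8.08% of all genes, with 1 member at an unadjusted p under 0.05. Against 0 h it was 0.74 (adjusted p = 0.027). At 48 h bZIP12 was the 1 of 6 members with an adjusted p under 0.05 with no fold threshold, as were 9.74% of all leaf genes. The leaf libraries of the 48 h control had 85.8, 164 and 166 TPM, the first being the leaf library with the lowest sum of the leaf genes. The difference of 48 h from this control did not pass (0.73, adjusted p = 0.24).

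**Figure D3:**
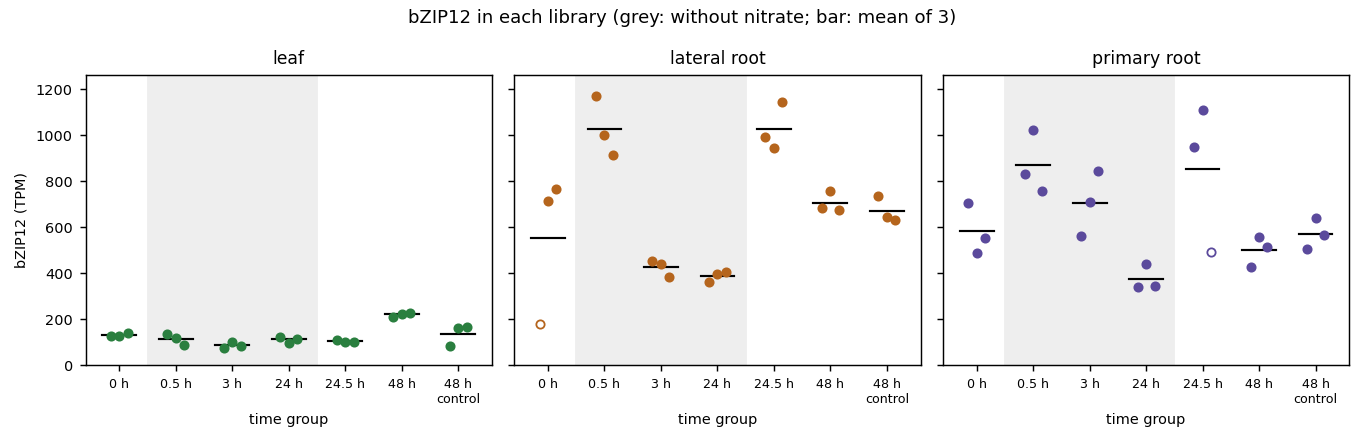
bZIP12 in every library, in TPM, by time in leaf, lateral root and primary root. Points are libraries, bars are means of 3, the grey band marks the groups without nitrate, and open symbols mark lateral root 0 h replicate 1 and primary root 24.5 h replicate 3. The root libraries at 24.5 h stand above those at 24 h, and the leaf libraries at 48 h stand above all other leaf libraries.

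Few calls were made over all comparisons with 0 h. In leaf, limma called 0 of the 6 members tested at any of 6 comparisons, where the shares of all genes after 0.5 h were 8.12% (3 h), 2.42% (24 h), 4.36% (24.5 h), 5.22% (48 h) and 5.71% (48 h control). At an unadjusted p under 0.05 there were 0 leaf members at 0.5 h, 2 each at 3 and 24 h, and 1 in each later comparison. Lateral root had the 3 calls given above, and 0 of 7 members at 3 h, 24 h, 48 h and in the control, where 6.87%, 9.43%, 7.23% and 6.73% of all genes were called, and 1, 2, 3 and 2 members had an unadjusted p under 0.05. Primary root had the single call of bZIP18 at 0.5 h, and 0 of 7 at 3, 24, 24.5 and 48 h and in the control, against 4.22%, 4.5%, 5.81%, 3.4% and 1.47% of all genes, with 2, 4, 2, 1 and 1 members at an unadjusted p under 0.05. Between 24 and 48 h, 0 of 7 members were called in lateral root (2.12% of all genes) or primary root (4.73%), with 2 and 1 members at an unadjusted p under 0.05.

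The members did not move as a block. Their median log2 fold change at 0.5 h in primary root was 0.04, against -0.08 over all genes, with members from -0.38 to 1.79. In lateral root it was 0.51 against 0.20, with 0 h replicate 1 included. Over the lateral root comparisons with 0 h the median gene stood at 0.16 to 0.26 on the deposited scale, and at 0.5 h it stood at 0.02 after median-of-ratios scaling, where bZIP18 had 1.64 and was called. At 24.5 h against 24 h the medians of the members were 0.16 in primary root, 0.20 in lateral root and -0.11 in leaf.

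**Figure D4:**
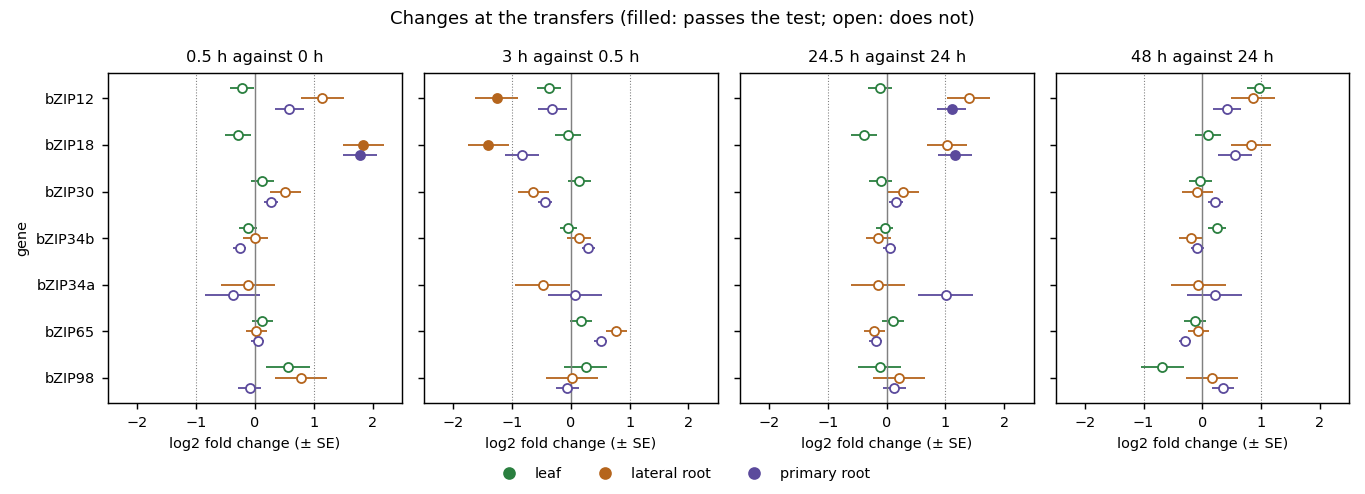
Log2 fold change (of TPM + 1) with its SE for the 7 bZIP genes in each tissue, for 0.5 against 0 h, 3 against 0.5 h, 24.5 against 24 h and 48 against 24 h. Filled symbols passed an adjusted p under 0.05 and a log2 fold change over 1 in size, which the dotted lines mark. Filled symbols occur for bZIP18 and bZIP12 only, and in the roots only.

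bZIP65 was higher at 3 h in both roots by less than the fold threshold. Primary root libraries had 15.7, 17.1 and 16.4 TPM at 0 h, 16.0, 15.8 and 19.1 TPM at 0.5 h and 24.8, 21.7 and 27.4 TPM at 3 h, the last above every other primary root library. The log2 fold change at 3 h was 0.55 with SE 0.11 and adjusted p = 0.0037 against 0 h, 1.50 times in the mean, and 0.51 (adjusted p = 0.0047) against 0.5 h. In lateral root, 8.91, 12.9 and 16.1 TPM at 0 h stood against 20.6, 24.9 and 21.1 TPM at 3 h, all of which were above every other lateral root library, with a log2 fold change of 0.80 with SE 0.18 and adjusted p = 0.014 and of 0.58 (adjusted p = 0.012) without 0 h replicate 1.

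Counted with no fold threshold at 3 h against 0 h, 2 of 7 members passed in primary root (bZIP65 and bZIP18), as did 13% of all genes, and 1 of 7 in lateral root (bZIP65), as did 9.53%. Leaf levels of bZIP65 were 6.31, 7.41 and 6.19 TPM at 0 h and 12.2, 9.73 and 8.98 TPM at 24.5 h, which do not overlap, and the log2 fold change of 0.56 (adjusted p = 0.060) did not pass. The time of its highest level thus differed from that of bZIP18 and bZIP12, which were highest at 0.5 or 24.5 h in the roots.

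bZIP30 stands beside bZIP18 in the network, with edges to nearly the same genes, and moved less. Primary root libraries had 21.97, 25.0 and 22.7 TPM at 0 h, 28.6, 26.5 and 29.9 TPM at 0.5 h and 23.2, 18.2 and 20.9 TPM at 3 h. Those of 0.5 h were above all others of the tissue, and the log2 fold change at 0.5 h was 0.27 (adjusted p = 0.17). From 0.5 to 3 h it was -0.43 with SE 0.12 and adjusted p = 0.020, under the fold threshold. With no fold threshold, bZIP30 and bZIP65 were the 2 of 7 members that passed this comparison, in opposite directions, as did 16.9% of all genes, and with the threshold 0 members passed, against 4.63% of all genes, 4 members having an unadjusted p under 0.05. Lateral root libraries had 13.5, 33.1 and 20.0 TPM at 0 h and 39.2, 27.1 and 25.8 TPM at 0.5 h, which overlap. At 3 h they had 14.8, 19.3 and 24.0 TPM, all below those of 0.5 h. This was the largest change of bZIP30 over time, 0.63 times in the mean, and it did not pass. In leaf the group means lay between 10.9 and 15.5 TPM, and no comparison passed.

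bZIP98 had no change over time that passed in any tissue. In leaf it stood at 1.39, 3.41 and 4.39 TPM at 0 h, 6.94, 6.09 and 4.50 TPM at 3 h and 1.99, 2.23 and 1.41 TPM at 48 h. The 3 h libraries were all above those of 0 h and of 48 h, and 48 h was the lowest group by its mean of 1.88 TPM. The leaf control had 4.24, 0.786 and 0.740 TPM, with replicate 1 well above the other 2. Lateral root had 1.91, 14.5 and 12.3 TPM at 0 h and 19.2, 20.9 and 19.1 TPM at 24.5 h, a log2 fold change of 1.296 (adjusted p = 0.051), or 0.53 (adjusted p = 0.12) without 0 h replicate 1. Primary root group means ranged from 20.0 to 26.9 TPM.

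bZIP34b varied little between groups in the roots. Its group means ranged from 33.0 to 45.1 TPM in primary root and from 38.3 to 47.2 TPM in lateral root. Primary root had 43.0, 45.7 and 42.7 TPM at 0 h and 31.3, 34.8 and 32.9 TPM at 48 h, with a log2 fold change of -0.40 (adjusted p = 0.041), under the fold threshold. With the 48 h control in place of 0 h it was -0.14 (adjusted p = 0.92). Against 0 h bZIP34b was the 1 of 7 members that passed there with no fold threshold, as did 7.7% of all genes, and bZIP18 was the 1 that did so at 24.5 h, as did 14.4%. In leaf it was highest in the 48 h control, 32.7, 23.0 and 26.7 TPM, all above every other leaf library, while leaf at 24 h had 17.7, 16.3 and 15.5 TPM. Leaf at 24 h against the 48 h control gave -0.69 with SE 0.15 and adjusted p = 0.0050, under the fold threshold, and -0.56 without 48 h control replicate 1.

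bZIP34a was not tested in leaf, where only 2 of 21 libraries reached 1 TPM. Its primary root libraries had 0.345, 0 and 0 TPM at 24 h and 1.22, 0 and 3.92 TPM at 24.5 h, the highest value being that of replicate 3, the library with raised leaf genes. The log2 fold change was 1.01 (adjusted p = 0.19). In lateral root all 3 libraries of 24 h, 24.5 h and 48 h were above 1 TPM. At 0 h the libraries had 0, 1.87 and 1.82 TPM, the one at 0 being the library that resembled leaf.

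**Figure D5:**
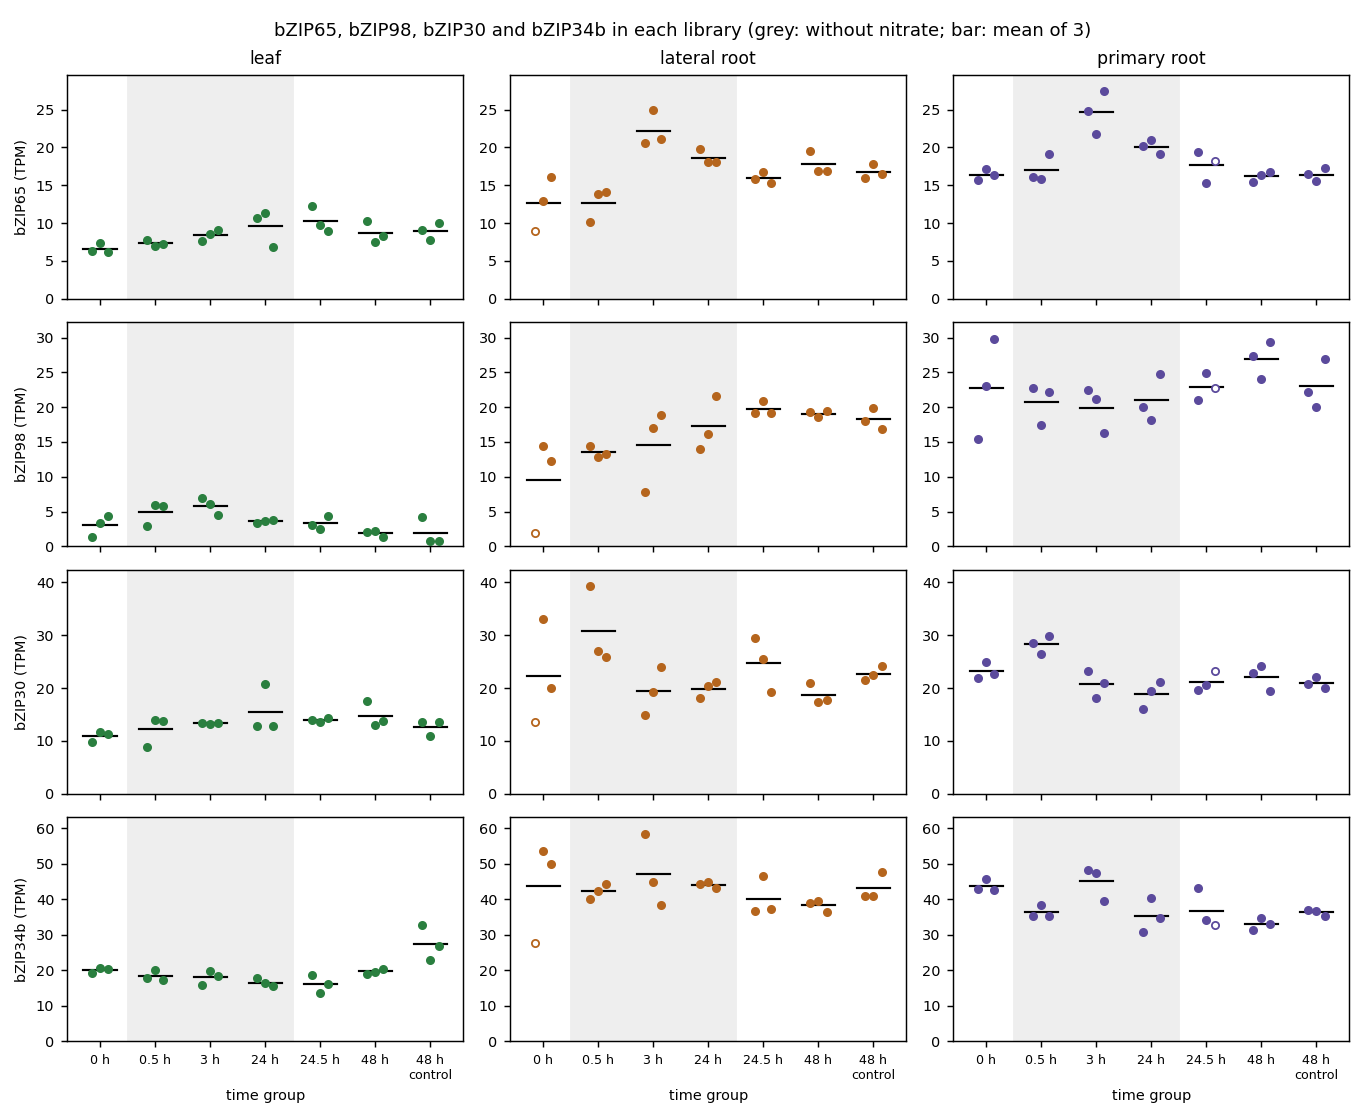
bZIP30, bZIP34b, bZIP65 and bZIP98 in every library, in TPM, by time and tissue. Points are libraries, bars are means of 3, the grey band marks the groups without nitrate, and open symbols mark the libraries lateral root 0 h replicate 1 and primary root 24.5 h replicate 3. bZIP65 stands highest at 3 h in both roots. The libraries of bZIP30 at 0.5 h in primary root and of bZIP34b in the leaf 48 h control stand above all others of their tissue. Many of the other groups overlap.

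bZIP18 and bZIP12 varied together in the roots. Over the 21 libraries of primary root, which share their time groups, Pearson's r of log2(TPM + 1) between them was 0.838 and Spearman's rho 0.834, with r 0.846 without 24.5 h replicate 3. In lateral root r was 0.879 and rho 0.873, with r 0.812 without 0 h replicate 1, and in leaf r was 0.479. For bZIP18 and bZIP30, which share network edges, r was 0.495 in primary root and 0.603 in lateral root. bZIP12 and bZIP65 had opposite courses in lateral root without 0 h replicate 1, with r of -0.758 and rho of -0.832 over 20 libraries, and r of -0.131 and rho of -0.582 over all 21. In those 20 libraries bZIP65 also had r of -0.728 with bZIP30 and of -0.675 with bZIP18. In primary root, r between bZIP12 and bZIP65 was -0.071 and rho -0.162. In leaf, the lowest r of bZIP12 was with bZIP98, at -0.717 (rho -0.738). These values are descriptions of libraries that share groups, with no test.

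Among all genes tested in primary root, the gene most like bZIP18 by Pearson's r over 21 libraries was SORBI_3009G154200, with r = 0.957, rho 0.944 and levels of 0.224 to 89.2 TPM. The next was SORBI_3003G303100, with r = 0.941, rho 0.906 and 3.91 to 105 TPM. In all, 25 of 23185 genes had r over 0.9 with bZIP18 in primary root, and 0 had so with bZIP30, whose nearest were SORBI_3002G042500 (r = 0.838, rho 0.679) and SORBI_3002G050700 (r = 0.832, rho 0.697). In leaf the nearest to bZIP18 were SORBI_3001G204300 (r = 0.91, rho 0.796) and SORBI_3003G332700 (r = 0.85, rho 0.764), and to bZIP30 SORBI_3005G000800 (r = 0.915, rho 0.878) and SORBI_3003G031300 (r = 0.889, rho 0.758). The tables used here give these genes no name.

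The genes that the projected network joins to the members number 46 for bZIP18, 43 for bZIP30, 16 for bZIP65, 14 for bZIP98, 7 for bZIP12 and the same 6 for both copies of bZIP34. bZIP18 and bZIP30 share 40 of these, and bZIP18 itself is joined to bZIP30, bZIP12, bZIP65 and bZIP98. The lists rest on binding in yeast of maize proteins to maize promoters, and they overlap, so that their counts are not independent of each other.

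Of the genes joined to bZIP18, 4 higher and 6 lower of 42 tested (23.8%) were called at 0.5 h against 0 h in primary root, against 5.37% of all genes. The median log2 fold change of the list was -0.28, against -0.08 over all genes. At 24.5 h against 24 h the calls in primary root were 5 higher and 1 lower of 42 tested (14.3%), against 3.8%. In lateral root they were 5 higher and 2 lower of 41 tested (17.1%) at 0.5 h, against 8.65%, and 5 higher and 1 lower of 41 tested (14.6%) at 24.5 h, against 1.41%. Without lateral root 0 h replicate 1 these became 5 higher and 5 lower (24.4%, against 8.83%) and 7 higher and 3 lower (24.4%, against 3.68%). In leaf 0 of 36 were called at 0.5 h, where 0 genes were called in all, and 2 higher and 3 lower of 36 tested (13.9%) at 3 h, against 8.12%. Genes joined to bZIP18 were called in both directions in each of these comparisons with any call.

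Of the genes joined to bZIP30, which include bZIP18, the calls from 0.5 to 3 h were 6 higher and 3 lower of 38 tested (23.7%) in primary root, against 4.63% of all genes, and 4 higher and 6 lower of 37 tested (27%) in lateral root, against 5.05%. Without lateral root 0 h replicate 1 the latter became 6 higher and 8 lower (37.8%, against 9.46%). Leaf had 0 higher and 4 lower of 33 tested (12.1%), against 3.61%. Of those joined to bZIP65, 2 higher and 1 lower of 14 tested (21.4%) were called at 0.5 h in primary root, where 5.37% of all genes were, and of those joined to bZIP98, 1 higher and 2 lower of 13 tested (23.1%). Both lists include bZIP18, which is the only higher call of the bZIP98 list and 1 of the higher calls of the bZIP65 list. Of those joined to bZIP12 and tested, the only call at 0.5 h in primary root was bZIP18. Of those joined to bZIP34b, 0 higher and 1 lower of 6 tested (16.7%) were called at that time, against the same 5.37% of all genes.

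HAD2 (SORBI_3002G403600) had the largest change in lateral root at 0.5 h among the genes joined to bZIP18. Its libraries had 2444, 229 and 75.1 TPM at 0 h and 16.7, 10.4 and 13.5 TPM at 0.5 h, so that it fell without overlap (log2 fold change -4.61, adjusted p = 0.0018), also without 0 h replicate 1 (-3.21, adjusted p = 0.00027). Primary root had 43.2, 45.3 and 49.8 TPM against 12.9, 13.0 and 16.7 TPM, likewise without overlap, with a log2 fold change of -1.64 (adjusted p = 0.23) that did not pass. Without primary root 24.5 h replicate 3 the adjusted p of HAD2 there was 0.060. LOG2 (SORBI_3003G202200) rose in both roots, from 17.5, 41.9 and 61.0 to 197, 255 and 197 TPM in lateral root (log2 fold change 2.56, adjusted p = 9.0e-05) and from 92.2, 33.6 and 37.3 to 129, 188 and 75.9 TPM in primary root (1.31, adjusted p = 0.025). Without lateral root 0 h replicate 1 the change of LOG2 in lateral root was 2.06 (adjusted p = 1.0e-05).

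The other 4 genes that the size of their change singled out in this comparison did not pass with all libraries. PPDK2 (SORBI_3009G132900), an enzyme of C4 photosynthesis, had 15523, 44.6 and 25.0 TPM at 0 h in lateral root and a log2 fold change of -3.56 (adjusted p = 0.14), which became -0.62 (adjusted p = 0.50) without 0 h replicate 1. LHCB5 (SORBI_3005G087000), a light-harvesting protein, went from -2.79 (adjusted p = 0.28) to 0.46 (adjusted p = 0.70), with a change of sign. NAR2.1 (SORBI_3004G202400), a partner protein of high-affinity nitrate transporters, went from 2.86 (adjusted p = 0.13) to 0.59 (adjusted p = 0.39). OSM3 (SORBI_3001G145700) went from -2.50 (adjusted p = 0.055) to -1.19 (adjusted p = 0.14). In primary root OSM3 had 53.7, 25.1 and 58.7 TPM at 0 h and 3.79, 13.8 and 12.7 TPM at 0.5 h, without overlap. The log2 fold change there was -2.15 (adjusted p = 0.081), and it passed without primary root 24.5 h replicate 3 (adjusted p = 0.044).

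Among the genes joined to bZIP30, 6 were named by the size of their change in lateral root from 0.5 to 3 h without nitrate, and they moved in both directions. NLP17 (SORBI_3002G287400), a NIN-like protein of a family of nitrate-responsive TFs, had 5.44, 4.02 and 6.12 TPM at 0.5 h and 25.8, 31.4 and 19.6 TPM at 3 h in primary root, and it rose there (log2 fold change 2.09, adjusted p = 6.5e-06) and in lateral root (2.72, adjusted p = 0.0015). NRT2.1 (SORBI_3004G009500), a high-affinity nitrate transporter with a neighbouring copy whose reads it may share, had 4.61, 11.5 and 11.8 and then 37.8, 51.2 and 57.4 TPM in primary root, where it rose (2.34, adjusted p = 0.00020). In lateral root NRT2.1 did not pass with all libraries (2.74, adjusted p = 0.065) and passed without 0 h replicate 1 (2.74, adjusted p = 3.0e-05). NR2 (SORBI_3004G312500), a nitrate reductase, rose in lateral root (2.70, adjusted p = 0.022) and in primary root (1.16, adjusted p = 0.030), and its change in leaf was -1.14 (adjusted p = 0.076), which did not pass.

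AlaAT1 (SORBI_3001G260800), an alanine aminotransferase, fell in all 3 tissues over the same interval. Leaf libraries had 409.9, 334 and 288 TPM at 0.5 h and 53.4, 52.2 and 45.8 TPM at 3 h, without overlap. In leaf the log2 fold change was -2.73 (adjusted p = 1.5e-05). Lateral root had -2.41 (adjusted p = 0.00027) and primary root -1.42 (adjusted p = 0.00087). NRT1.3 (SORBI_3004G193000) fell in lateral root (-2.43, adjusted p = 0.041) and leaf (-1.06, adjusted p = 0.047), and ACS1 (SORBI_3003G033900) fell in primary root (-1.57, adjusted p = 0.0090) and did not pass in lateral root with all libraries (-2.41, adjusted p = 0.072). Without 0 h replicate 1 the lateral root changes were 2.72 (adjusted p = 5.9e-08) for NLP17, 2.70 (adjusted p = 7.5e-06) for NR2, -2.41 (adjusted p = 1.0e-05) for AlaAT1, -2.43 (adjusted p = 1.3e-05) for NRT1.3 and -2.41 (adjusted p = 8.4e-05) for ACS1. bZIP30 itself did not reach the fold threshold in any of these comparisons.

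Among the other 22 bZIP genes of the network, limma called 1 of the 21 tested in primary root at 0.5 h against 0 h, where 5.37% of all genes were called, and 1 of the 22 tested in lateral root, where 8.65% were. Both were lower at 0.5 h. In primary root the gene was bZIP21 (SORBI_3003G183000), with 38.7, 49.0 and 41.9 TPM at 0 h and 11.9, 17.0 and 22.2 TPM at 0.5 h, all of which were below those of 0 h. Its log2 fold change was -1.33 (adjusted p = 0.030), a call that 4 of 21 fits without 1 library lost. Set against the 48 h control in place of 0 h it was -0.44 (adjusted p = 0.57), the control libraries having 26.3, 26.6 and 17.1 TPM. From 0.5 to 3 h bZIP21 rose (1.86, adjusted p = 0.0035). The lateral root gene was bZIP102 (SORBI_3003G332200), with a log2 fold change of -1.05 (adjusted p = 0.0039) with 0 h replicate 1 included. This is close to the fold threshold, and the value and the count without that library are not given here.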

How the data were processed

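Expression was measured by RNA-seq of sorghum leaf, lateral root and primary root in 63 libraries. Per the labels and methods, the authors used Trimmomatic on poly(A) paired-end reads, STAR for alignment to the BTx623 genome and StringTie for quantification, and they deposited TPM values, 1 column for each library, without scaling across libraries. DESeq2, which the submitters' notes also name, needs counts and was not used here. Depth cannot be read from TPM, so precision rests on the spread between 3 libraries. Groups were taken from the labels.

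A gene was tested in a tissue where 3 or more of its libraries had 1 TPM or more. Values entered as log2(TPM + 1), a scale that understates changes of low genes. The models were fitted with limma (version 3.58.1, R version 4.3.3) with moderated variances that follow a trend, 1 fit of 7 groups per tissue and 1 fit of all 63 libraries for tissues and interactions. Called means a log2 fold change over 1 in size with a Benjamini-Hochberg adjusted p, over all genes tested, under 0.05. For interactions the adjusted p alone was used. Statements that the libraries of 2 groups did or did not overlap describe the values and are no test. The share of all genes without overlap is not given here. Lack of overlap was frequent among the members. In leaf at 3 h against 0 h, 3 were higher and 2 lower without overlap, of 6 tested, and 0 were called. The fit was tested on simulated data. Tables were handled with pandas 2.3.3 and NumPy 2.4.6 in Python 3.11.15, and plots made with matplotlib 3.10.9.

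The members and lists were chosen with earlier results of these data known. Of the other 22 network bZIP genes, those called against 0 h in leaf or primary root are named. For bZIP18 and bZIP30, the 2 genes with the highest Pearson r in primary root and in leaf are named, and of their network genes the 6 with the largest change at the comparison where that member changed most. bZIP102 was named after its values were seen. Other settings tried were 0.1 as pseudocount, filtering not at all or at a mean of 5 TPM, scaling by median of ratios or quantiles, the replicate number as a block, a variance model with no trend, fitting only the 2 groups of a comparison, dropping the fold threshold, and leaving out each library. The 48 h control in place of 0 h was added after the data had been seen. No batch is given in the labels. Of 35567 gene IDs, 0 were found in the reference table used, and gene names are those of the study's network.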

Additional observations from a re-analysis of the deposited data

Results flagged for a closer look

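The change of bZIP18 from 0 h to 0.5 h without nitrate was different in leaf and primary root, with a difference of -2.08 on the log2 scale (SE 0.42, adjusted p = 0.0039 by limma). Over the fits that left out 1 library each it ran from -2.25 to -1.91, with adjusted p up to 0.023. The change of bZIP18 from 24 h to 24.5 h, when nitrate was returned, also differed between these tissues, by -1.55 (SE 0.42, adjusted p = 0.037), with a range of -1.84 to -1.24 and adjusted p up to 0.16 when 1 library was left out. Both were singled out because a test of the difference between tissues passed with all libraries. Without lateral root 0 h replicate 1, 9 changes of members passed such a test of leaf against primary root, against 2 with all libraries. Low p-values became more frequent among all genes as well, and the share of all genes that passed in that fit is not given here. The cause of either difference was not tested.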

How the results depend on the processing

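Of 1713 alternative values for 39 results, 1583 kept their direction and stayed called or not called, 102 lost the call, 27 gained it and 1 reversed: bZIP30 in leaf against primary root came to 0.010 after median-of-ratios scaling. Results under the fold threshold count as kept even where their adjusted p rose. That of bZIP34b in primary root at 48 h against 0 h reached 0.92 by limma. Most alternatives left out 1 library, often one outside the groups compared, so this total is no measure of firmness. Over the comparisons with 0 h, members were called 0 times in leaf and 1 time with no fold threshold, and 0 to 1 times with 1 library left out (1 without 48 h control replicate 1). In lateral root the 3 calls became 1 with no filter, 5 with a mean of at least 5 TPM, 0 with only the groups compared and 1 with the 48 h control in place of 0 h, and ranged from 1 to 9 with 1 library left out, with 9 without 0 h replicate 2 or 3, and 1 without 0 h replicate 1 or 24.5 h replicate 2 or 3. In primary root the 1 call became 3 with a pseudocount of 0.1 and 5 with no fold threshold, and 1 to 3 with 1 library left out (3 without 0 h replicate 1, and 2 without 3 h replicate 2 or 24.5 h replicate 3). Leaf against primary root had 4 calls, 2 after quantile normalization, and 3 to 4 with 1 library left out. Lateral against primary root had 0 calls, 5 with no fold threshold, and 0 to 0 with 1 library left out. Changes that differed between leaf and primary root numbered 2, or 4 after either scaling, and 1 to 9 with 1 library left out, with 9 without lateral root 0 h replicate 1, 4 without primary root 24.5 h replicate 3, and 1 without leaf 24.5 h replicate 2 or 3, primary root 24 h replicate 1 or 24.5 h replicate 2. Those between lateral and primary root numbered 0, and 0 to 7 with 1 library left out (7 without lateral root 0 h replicate 2 or 3). Members with no test numbered 1, 0 with no filter and 5 at a mean of at least 5 TPM. With the replicate number as a block the calls were 0 in leaf, 4 in lateral root, 1 in primary root, 4 and 0 between tissues, and 2 and 0 for the interactions, and the call of bZIP12 in lateral root from 0.5 to 3 h was lost. The same-numbered libraries share only a number: their deviations had mean correlations from -0.046 to 0.023. The shares of all genes called under each of these settings are not given beside the counts. The counts of members alone thus cannot tell a shift of the members from one of all genes. In lateral root at 24.5 h against 0 h, that share went from 13.2% to 10.9% without 0 h replicate 1. The causes of these shifts were not tested. Depth is unknown, and the low levels of bZIP34a and of leaf bZIP98 and bZIP18 limit what a change there can show.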

Other observations

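Among the other bZIP genes of the network, bZIP24 (SORBI_3001G396400) was higher at 24 h without nitrate than at 0 h in primary root. Its libraries had 1.42, 0.716 and 3.97 TPM at 0 h and 8.28, 9.41 and 6.61 TPM at 24 h, without overlap, and the log2 fold change by limma was 1.72 (adjusted p = 0.010). From 24 to 48 h it fell by 1.98 on the log2 scale (adjusted p = 0.0037). bZIP111 (SORBI_3008G157100) rose in leaf, from 50.6, 57.4 and 51.5 TPM at 0 h to 161, 132 and 166 TPM at 48 h (log2 fold change 1.50, adjusted p = 0.0021), the group in which bZIP12 also had its highest leaf level. Leaf libraries of the 48 h control had 57.4, 131 and 136 TPM of bZIP111, with a log2 fold change of 0.91 (adjusted p = 0.040) against 0 h, under the fold threshold. bZIP15 (SORBI_3010G269000) had 24.9, 39.3 and 40.8 TPM at 0 h and 15.8, 8.80 and 18.7 TPM at 24.5 h in primary root and fell between them (-1.25, adjusted p = 0.0081). That call was lost without 24.5 h replicate 2 (-0.95, adjusted p = 0.037), in the fit of both groups alone (adjusted p = 0.083) and with the 48 h control in place of 0 h (-0.86, adjusted p = 0.051). bZIP21 had a log2 fold change of -1.33 (adjusted p = 0.026) at 24.5 h against 0 h, a comparison that shares its 0 h libraries with that of 0.5 h. It was -0.45 (adjusted p = 0.46) with the 48 h control in place of 0 h, and 4 of 21 fits without 1 library lost the call.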
